A study of Mus musculus with 3008 samples.

Results

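The 10 genes described here encode metallothioneins (Mt1, Mt2), a glutaredoxin (Glrx), thioredoxin and its reductase (Txn1, Txnrd1), peroxiredoxins (Prdx1, Prdx5, Prdx6) and glutathione peroxidases (Gpx1, Gpx4). They are 10 of the 23725 genes in the count table, and 15742 of those genes had a UMI in any cell. A UMI is a unique molecular identifier, the tag that lets copies of 1 captured transcript be counted once. The genes were chosen by function with the colon and spleen levels of these same cells already known, so the comparison of the tissues below is a description and carries no test.

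The cells came from a sort for Foxp3+ regulatory T cells (Tregs), a CD4 lineage that holds immune responses in check, in male B6 Foxp3-Ires-Gfp mice aged 7 months. All groups shared that strain, sex and age, and in all of them live TCRb+ CD4+ GFP+ cells were sorted and profiled by the droplet method inDrops. There was 1 spleen library, with 20.5% of the 3008 cells, and there were 2 libraries of colon lamina propria, colon 1 with 20.6% and colon 2 with 58.9% of the cells. Spleens had been dissociated mechanically and colons digested with collagenase and dispase, so the tissue and the way it was dissociated cannot be told apart. No animal is named in the labels, and whether the colon libraries came from separate mice is not given in the sources used here. Colon 2 carries rep2 in its title and rep1b in another label, so separate samples and repeat loadings of 1 suspension cannot be told apart. Each tissue was therefore treated as 1 sample, no p-value was computed, and all intervals are 95% intervals of counting error only.

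Cells keep their thiols reduced through paired systems. Thioredoxin and glutaredoxin reduce oxidised proteins through a pair of active-site cysteines, drawing electrons from thioredoxin reductase and from glutathione. Peroxiredoxins and glutathione peroxidases use the same electrons to remove peroxides. Metallothioneins are short cysteine-rich proteins that bind zinc, copper and cadmium, and their genes are switched on by zinc through the transcription factor MTF-1.

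Spleen, colon 1 and colon 2 held 1255946, 1253246 and 3916649 UMIs, with a median per cell of 1847, 1767 and 2026.5. Sequencing was shallower per molecule in colon 2, with a median of 26.7 reads per UMI against 58.7 in spleen and 61.6 in colon 1. All 12 Treg markers were detected in each library, and their summed level in spleen, colon 1 and colon 2 was 4802, 10012 and 9913 CPM, the UMI count per 1000000 UMIs of the library. Between 5 and 11 cell barcodes were shared by a pair of libraries. Summed markers of 8 other cell types ranged from 3.18 to 198.3 CPM in spleen and from 1.02 to 298.4 CPM in colon. The macrophage and dendritic list stood at 177.6, 298.4 and 291.6 CPM, with 7, 10 and 15 of its 18 genes detected. Csf1r and Clec9a were at 0 in all libraries. The colon epithelium list stood at 58.9, 42.3 and 73.3 CPM, with 5, 6 and 11 of its 17 genes detected. Phgr1, Muc2, Car1, Fabp2 and Slc26a3 were at 0 in all libraries. Ribosomal protein genes took 28.5% of UMIs in spleen against 17.6% and 16.3% in colon, and of 22 listed heat-shock and early response genes of the kind raised by digestion, 11 were at least 2-fold higher and 1 lower in both colon libraries, with Hspa1b at 33.6-fold and 42-fold and Zfp36 at 0.37-fold and 0.44-fold the spleen level.

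Levels are given as CPM over the summed cells of a library, without a length correction, so they are compared between libraries and never between genes. Metallothionein and glutaredoxin transcripts stood highest in colon relative to spleen: Mt1 was 14.9-fold and Glrx 3.82-fold the spleen level in colon 1, with 11.5-fold and 3.69-fold in colon 2, and Mt2, with 1 UMI in spleen, was at 69.4 and 57.4 CPM in colon. Txnrd1 was also more than 2-fold higher in both. Txn1, Prdx1, Prdx6, Gpx1 and Gpx4 were higher by smaller ratios, from 1.31-fold for Gpx4 in colon 1 to 2.02-fold for Prdx1 in colon 1. Prdx5 stood at nearly the same level in all 3 libraries. In total 4 of the 10 genes reached a ratio of 2 in each colon library, and 0 were 2-fold lower in both. Among all 3482 genes with at least 50 CPM in spleen or in both colon libraries, here called eligible genes, 11.7% were higher by that 2-fold rule and 4.45% were lower. Since the tissue contrast was known when the genes were chosen, nothing is read from their share. Txnrd1 lay below 50 CPM, and the other 9 genes were eligible. The median log2 ratio to spleen over the 10 genes was 0.98 in colon 1 and 0.84 in colon 2, against 0.03 and 0.05 over all eligible genes.

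**Figure D1:**
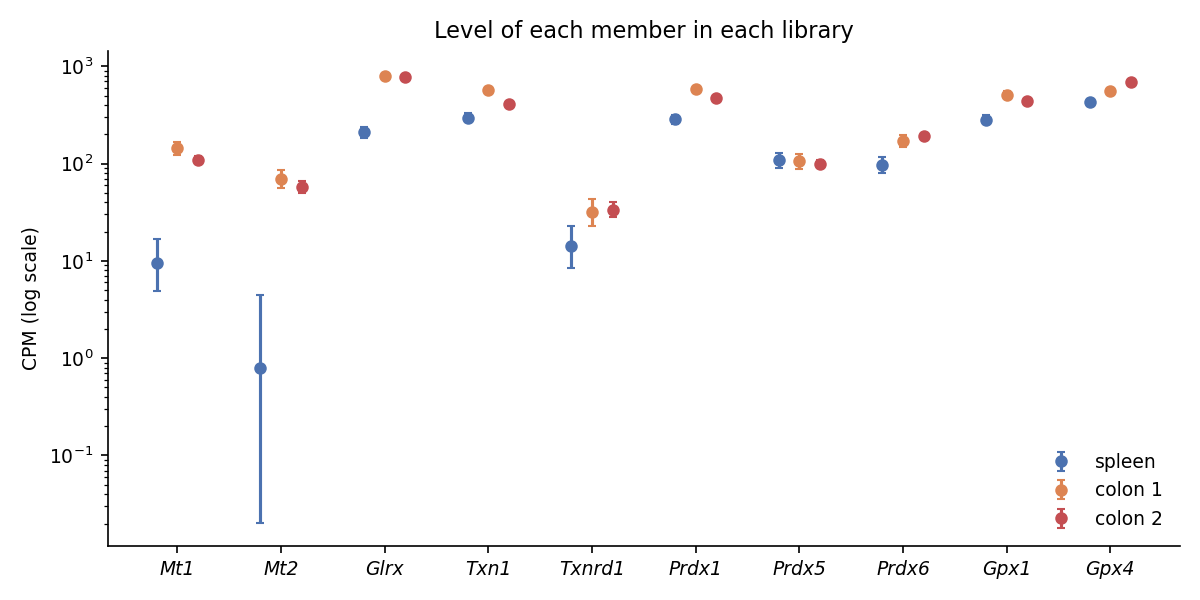
Level of each of the 10 genes in CPM (log scale) in spleen, colon 1 and colon 2, each point 1 library with its exact Poisson 95% interval. The metallothionein genes lie lowest in spleen and far higher in colon, Glrx stands apart by a smaller step, and the 3 points of Prdx5 overlap.

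The metallothionein genes Mt2 (chromosome 8, 94172664 to 94173568, plus strand, build GRCm38) and Mt1 (chromosome 8, 94179082 to 94180327, plus strand) lie 5513 bases apart. Their coding sequences follow, from the GENCODE vM21 annotation, 5′ to 3′ with the cysteine codons in capitals, because the cysteines are what binds metal.
Mt1: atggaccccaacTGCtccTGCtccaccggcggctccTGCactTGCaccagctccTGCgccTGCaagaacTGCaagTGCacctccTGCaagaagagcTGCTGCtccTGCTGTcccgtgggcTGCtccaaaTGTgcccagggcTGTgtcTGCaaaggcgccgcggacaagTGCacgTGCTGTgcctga
Mt2: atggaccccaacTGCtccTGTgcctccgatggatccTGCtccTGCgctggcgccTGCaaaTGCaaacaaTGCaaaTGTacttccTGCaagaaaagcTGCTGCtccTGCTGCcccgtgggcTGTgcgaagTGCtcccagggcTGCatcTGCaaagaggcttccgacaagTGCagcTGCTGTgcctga
In each, 20 of the 61 codons, or 32.8%, are cysteine codons. All 20 lie at the same positions in both genes, and 79.6% of the bases are identical, so the counts of each gene assume that reads were assigned between these close copies, a step that is not given in the sources used here.

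Spleen had 12 UMIs of Mt1, or 9.55 CPM, against 142.8 CPM in colon 1 and 109.8 CPM, from 430 UMIs, in colon 2. Both colon levels lay above the spleen interval of 4.94 to 16.7 CPM. The ratios were 14.9-fold and 11.5-fold, or log2 3.90 (3.06 to 4.88) in colon 1 and 3.52 (2.70 to 4.49) in colon 2. The 12 spleen UMIs came from 3 cells, and 6 of them from 1 cell, so the spleen level rested on very few cells. Without the highest cell of each library the log2 ratios were 4.81 and 4.47. Between the colon libraries Mt1 was lower in colon 2, by log2 -0.38 (-0.63 to -0.12).

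Spleen had 1 UMI of Mt2, or 0.796 CPM, against 69.4 CPM in colon 1 and 57.4 CPM in colon 2. With 1 spleen UMI the size of the ratio is poorly bounded, at log2 6.45 (3.93 to 11.77) in colon 1 and 6.17 (3.68 to 11.48) in colon 2. The colon libraries did not differ beyond counting error, at log2 -0.27 (-0.64 to 0.10).

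Both genes were found in few colon cells. With every cell thinned to 1000 UMIs, so that depth is equal, Mt1 was found in 8.20% of colon 1 cells (6.14% to 10.7%) and 6.59% of colon 2 cells (5.47% to 7.86%), against 0.326% in spleen (0.0395% to 1.17%), where 2 cells held it. Unthinned shares were 12.1%, 10.3% and 0.486%. The sort held no cell type that lacks these genes, so the share given by free RNA was not measured. The 10% of cells with the most Mt1 held 92.7% and 99.1% of its UMIs in the colon libraries. With Mt1 in 12.1% and 10.3% of unthinned cells such high shares were bound to arise, so no concentration is read from them. The cell with the most held 11 UMIs in colon 1 and 16 in colon 2. Mt2 was found in 3.61%, 3.38% and 0.163% of thinned cells of colon 1, colon 2 and spleen.

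Mt1 was detected more often in the colon cells that also held Mt2. After thinning, it was present in 11 of 22 colon 1 cells that had Mt2 (50%) against 6.63% of the cells that had none. In colon 2 the values were 25 of 59 cells, or 42.4%, against 5.34%. Over cells the Pearson correlation of thinned counts was 0.25 in colon 1 and 0.31 in colon 2, a description over cells of 1 library that share depth and preparation. Among the 45 pairs of the 10 genes it was the 1 pair above 0.1 in both colon libraries, and the median pair stood at 0.01 in each. How reads were assigned between these close copies is not given. Transcripts of both genes in a cell and reads of 1 gene divided between them therefore cannot be told apart.

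Metal response elements are the promoter sites that MTF-1 binds, and the core was searched as TGCACNC or TGCGCNC on both strands, in RefSeq promoter windows of 300 bases on GRCm38.p6 that run from 250 bases before to 50 bases after an annotated start. The windows of both metallothionein genes are shown because they hold several cores. Each is printed up to the earlier of its RefSeq and GENCODE starts. The cores are in capitals together with the antioxidant response core TGACNNNGC, the site class of NRF2. Both are on the plus strand, Mt1 at chr8:94178839-94179081 and Mt2 at chr8:94172368-94172617.
Mt1: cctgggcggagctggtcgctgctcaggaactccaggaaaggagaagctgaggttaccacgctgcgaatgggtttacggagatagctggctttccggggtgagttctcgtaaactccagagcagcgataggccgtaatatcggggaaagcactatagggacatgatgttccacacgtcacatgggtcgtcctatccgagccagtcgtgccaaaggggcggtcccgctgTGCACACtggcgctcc
Mt2: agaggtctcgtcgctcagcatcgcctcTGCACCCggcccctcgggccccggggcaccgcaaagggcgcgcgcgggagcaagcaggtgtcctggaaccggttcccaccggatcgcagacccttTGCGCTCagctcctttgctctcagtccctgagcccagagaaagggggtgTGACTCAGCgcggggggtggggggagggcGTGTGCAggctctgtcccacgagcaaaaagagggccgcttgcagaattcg
In these counts the start is the RefSeq start of the window, and which start the cells used was not measured. Mt2 held 3 metal cores and 1 antioxidant core before the start and 1 further metal core after it. That further core, at chr8:94172622-94172628, lies before the GENCODE start of Mt2 at 94172664. Mt1 held 1 metal core before the start and 2 after it, in the stretch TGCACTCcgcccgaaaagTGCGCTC at chr8:94179091-94179115. At least 3 metal cores were found in 1.97% and at least 4 in 0.517% of all 32851 windows, and at least 1 in 25.7%. Of the 9 genes matched to a window, all but Prdx6, 3 held a metal core, namely Mt1, Mt2 and Glrx. A match gives letters in a window, not an occupied site, and no binding was measured here.

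Glrx (chromosome 13, 75839868 to 75850154, plus strand) encodes glutaredoxin 1, which uses glutathione to release proteins from glutathione adducts. Spleen stood at 208.6 CPM, below 796.3 CPM in colon 1 and 770.3 CPM in colon 2. The ratios were 3.82-fold and 3.69-fold, or log2 1.93 (1.73 to 2.13) and 1.88 (1.70 to 2.07). The colon libraries did not differ beyond counting error, at log2 -0.05 (-0.15 to 0.06).

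After thinning Glrx was found in 36.1% of colon 1 and 37.6% of colon 2 cells against 9.14% of spleen cells, and unthinned in 48.6%, 50.4% and 13.9%. The top 10% of cells held 90.8% of its UMIs in spleen against 48.6% and 47.3% in colon. Such shares move with the level. The variance over the mean of thinned Glrx counts was 2.09 in spleen and 2.39 and 2.37 in colon. Mt1 in colon stood at 2.77 and 2.41. That ratio also moves with the mean, which was 0.155 for Glrx in spleen and 0.741 in each colon library. The mean of Mt1 in colon was 0.154 and 0.115, so like ratios do not show a like spread over cells.

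Txn1 (chromosome 4, 57943373 to 57956411, minus strand) encodes cytosolic thioredoxin. Its active site and that of Glrx are shown for their shared arrangement, 2 cysteine codons in capitals with 2 codons between them, as codons 20 to 29 of Glrx and 29 to 38 of Txn1.
Glrx: aagcccaccTGCccctacTGCagaaagacc
Txn1: gctacgtggTGTggacctTGCaaaatgatc
Txn1 was lowest in spleen at 295.4 CPM, highest in colon 1 at 571.3 CPM and between them in colon 2 at 410.8 CPM, with no overlap of the 3 intervals. The ratios were 1.93-fold, or log2 0.95 (0.77 to 1.14), and 1.39-fold, or log2 0.48 (0.31 to 0.64). Of the 10 genes Txn1 differed most between the colon libraries, lower in colon 2 by log2 -0.48 (-0.60 to -0.35), and the SD of that log2 ratio over all eligible genes was 0.43. After thinning it was found in 26.7% and 25.4% of colon cells and 14% of spleen cells, so the share of cells differed less between the colon libraries than the level. At least 3 Txn1 UMIs were present in 7.38% of thinned colon 1 cells and 2.87% of thinned colon 2 cells.

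Txnrd1 (chromosome 10, 82833951 to 82897712, plus strand) encodes the cytosolic selenoprotein that reduces thioredoxin. It was sparse, with 18 UMIs or 14.3 CPM in spleen, 40 UMIs or 31.9 CPM in colon 1 and 33.7 CPM in colon 2. The ratios were 2.23-fold and 2.35-fold, or log2 1.16 (0.32 to 2.05) and 1.23 (0.52 to 2.03). Thinned shares were 1.31%, 2.95% and 3.15% in spleen, colon 1 and colon 2, and the spleen interval of 0.565% to 2.56% overlapped those of both colon libraries. With totals that leave out ribosomal protein genes, Txnrd1 fell short of the 2-fold rule at log2 0.95 in colon 1.

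Prdx1 (chromosome 4, 116685544 to 116700822, plus strand), a cytosolic peroxiredoxin that thioredoxin recycles, was highest in colon 1 at 576.9 CPM, then colon 2 at 466.5 CPM and spleen at 285.8 CPM. The ratios were 2.02-fold and 1.63-fold, or log2 1.01 (0.83 to 1.20) and 0.71 (0.54 to 0.87), so the 2-fold rule was passed in colon 1 alone. Colon 2 was lower than colon 1 by log2 -0.31 (-0.43 to -0.18). It was found in 17.5%, 34.8% and 31.5% of thinned spleen, colon 1 and colon 2 cells.

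Prdx1 is a textbook target of NRF2, and its window, shown up to the annotated gene start (chr4:116685349-116685543, plus strand), holds 1 antioxidant core, in capitals on the reverse strand.
Prdx1: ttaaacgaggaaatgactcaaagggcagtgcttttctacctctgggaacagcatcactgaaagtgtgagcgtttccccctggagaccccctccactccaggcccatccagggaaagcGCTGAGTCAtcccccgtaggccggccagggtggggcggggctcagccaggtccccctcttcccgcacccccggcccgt
That core was found in 12.4% of all windows, and among the 10 genes in windows of Mt2, Prdx1 and Txnrd1.

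Prdx6 (chromosome 1, 161240112 to 161251219, minus strand) encodes a peroxiredoxin with a single catalytic cysteine that also acts on phospholipids. Spleen had 97.1 CPM, colon 1 had 170.8 CPM and colon 2 had 191.5 CPM. The ratios were 1.76-fold and 1.97-fold, or log2 0.81 (0.49 to 1.15) and 0.98 (0.70 to 1.27). The spleen level was the lowest, and the colon libraries did not differ beyond counting error. Its near copy Prdx6b had 33, 41 and 72 UMIs, and reads could be split between them. With the UMIs of both together, an alternative chosen after seeing the data, the mean of both log2 ratios was 0.74 against 0.90 for Prdx6 alone.

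Prdx5 (chromosome 19, 6906697 to 6910106, minus strand), a peroxiredoxin of mitochondria, peroxisomes and cytosol, had 108.3 CPM in spleen, near the 105.3 CPM of colon 1 and the 99.1 CPM of colon 2. All 3 intervals overlapped, and the log2 ratios were -0.04 (-0.40 to 0.32) and -0.13 (-0.41 to 0.16), intervals that lie within 1.5-fold in either direction. Prdx5 overlaps Trmt112 on the opposite strand, which was at 218.2, 170.8 and 164.9 CPM. Whether reads were counted by strand is not given in the sources used here, so the Prdx5 values are uncertain.

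The glutathione peroxidases Gpx1 and Gpx4 and the reductase Txnrd1 are selenoproteins, in which a TGA codon is read as selenocysteine instead of a stop. That codon is shown in capitals with the codons around it.
Txnrd1: ctccagtctggctgcTGAggttaa
Gpx1: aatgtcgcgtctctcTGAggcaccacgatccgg
Gpx4: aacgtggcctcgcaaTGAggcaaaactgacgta
In Txnrd1 the selenocysteine codon is the next to last before the stop codon, while in both peroxidases it lies inside the coding sequence. Gpx1 (chromosome 9, 108338903 to 108340343, plus strand), which removes hydrogen peroxide, was lowest in spleen at 281.1 CPM, with 512.3 CPM in colon 1 and 444.3 CPM in colon 2. The ratios were 1.82-fold and 1.58-fold, or log2 0.87 (0.68 to 1.06) and 0.66 (0.49 to 0.83). Colon 2 was lower than colon 1 by log2 -0.21 (-0.34 to -0.07).

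Gpx4 (chromosome 10, 80047166 to 80056439, plus strand) reduces lipid peroxides in membranes and is known as the brake on ferroptosis. Spleen again had the lowest level, 425.2 CPM, then colon 1 with 556.95 CPM and colon 2 with 687.3 CPM. The ratios were 1.31-fold and 1.62-fold, or log2 0.39 (0.22 to 0.55) and 0.69 (0.56 to 0.83). Here colon 2 was higher than colon 1, by log2 0.30 (0.18 to 0.43), opposite to Mt1, Txn1, Prdx1 and Gpx1. Spleen, colon 1 and colon 2 had thinned shares of 28.7%, 33.6% and 39.2%, and the spleen and colon 1 intervals overlapped.

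**Figure D2:**
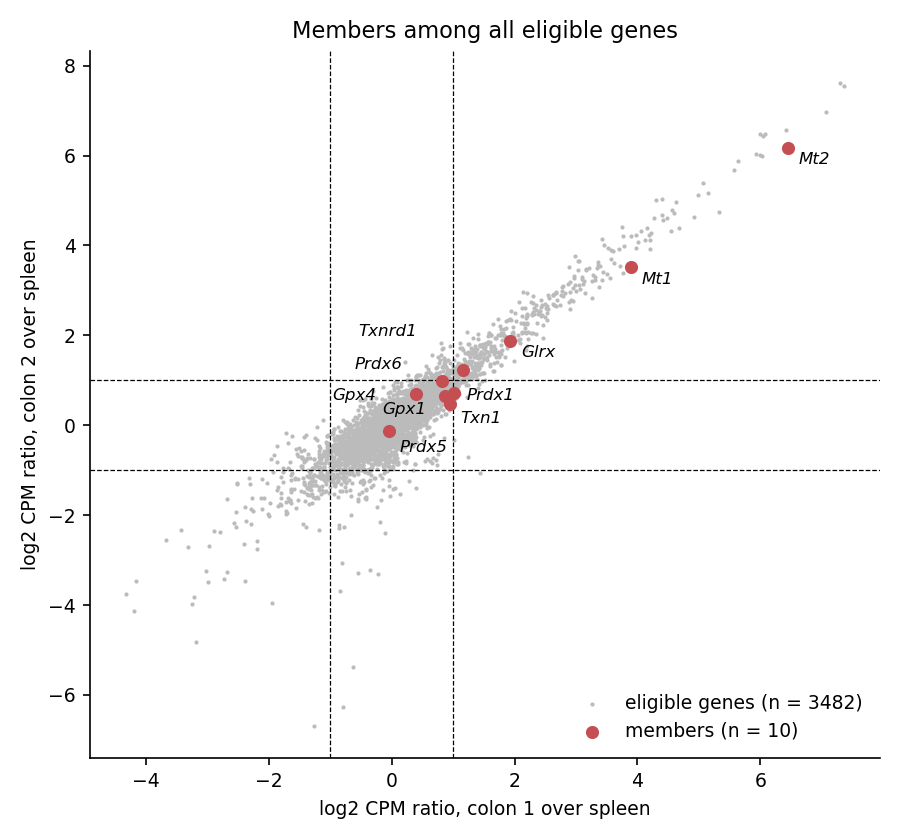
Log2 CPM ratio to spleen in colon 1 (x axis) and colon 2 (y axis) for the 3482 eligible genes in grey and the 10 genes described here in red. Dashed lines mark a 2-fold difference. Mt1, Mt2, Glrx and Txnrd1 lie beyond both lines on the higher side, and Prdx5 lies near 0.

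**Figure D3:**
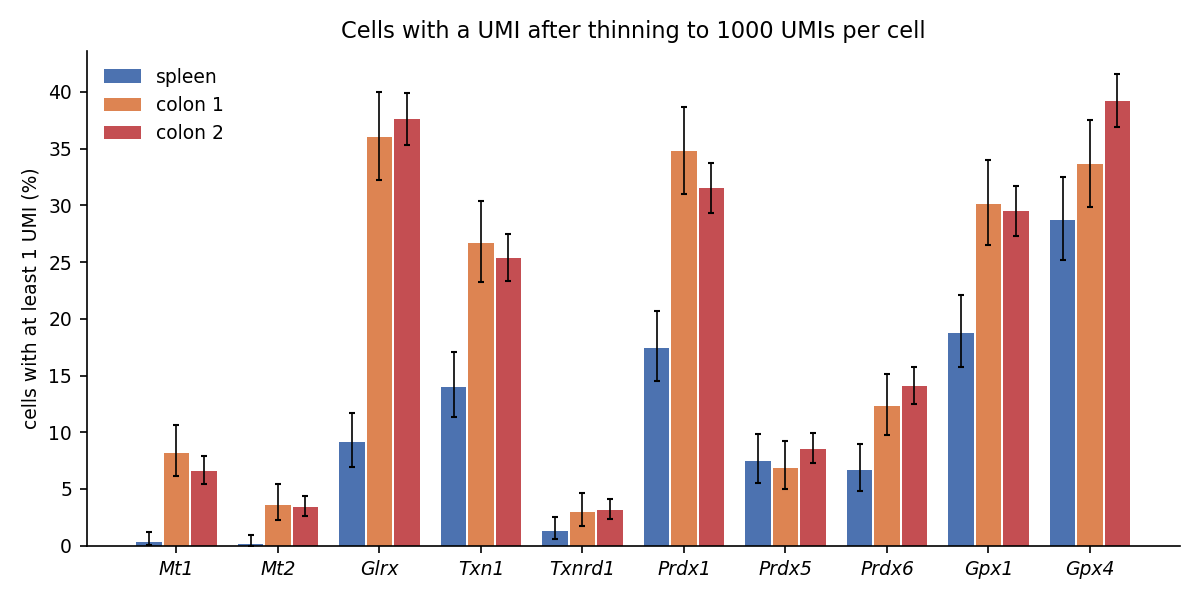
Percentage of cells with at least 1 UMI of each gene after thinning every cell to 1000 UMIs, with exact Clopper-Pearson 95% intervals. The bars of Mt1 and Mt2 stay below 10% in colon, while those of Glrx, Prdx1, Gpx1 and Gpx4 lie between 29.5% and 39.2%.

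Summed over the 10 genes, the level was 3534 CPM in colon 1 and 3271 CPM in colon 2 against 1726 CPM in spleen. In 9 of the 10 genes, all but Prdx5, the interval of the ratio to spleen lay above 0 in both colon libraries, as it did in 28% of eligible genes. Whether an interval excludes 0 depends on the UMI count as well as on the ratio, and nothing is read from this share because the contrast was known. In 5 of the 10 the interval of colon 2 against colon 1 excluded 0, against 41.8% of eligible genes.

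Since 11 of the 22 heat-shock and early response genes passed the 2-fold rule, the levels were recomputed without cells holding a UMI of Fosb, Hspa1a or Hspa1b. That kept 97.7% of spleen cells, 67.2% of colon 1 cells and 61.9% of colon 2 cells. The log2 ratios were then 3.71 and 3.57 for Mt1, 6.12 and 6.17 for Mt2, 1.98 and 1.88 for Glrx and 1.39 and 1.39 for Txnrd1. All 4 stayed above the 2-fold rule. The colon cells that were kept had been digested as well, and a missing UMI does not show that a transcript was absent. An effect of digestion was therefore not tested. In colon 1 the cells left out had less Txn1 than the rest, by log2 -0.52 (-0.77 to -0.28), while in colon 2 the interval held 0. In those cells 0 of the 10 genes were higher or lower beyond counting error in both colon libraries, against 2.87% and 3.33% of eligible genes. Without cells holding at least 2 markers of another cell type, which left out 5.35%, 7.92% and 6.32% of cells, the ratios were 3.72 and 3.41 for Mt1, 6.44 and 6.10 for Mt2 and 2.0 and 1.92 for Glrx.

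Within the colon, cells that did and did not hold transcripts of known Treg genes were compared. Txnrd1 and Prdx6 differed in none of these classes by the criterion used. The comparisons use cells of 1 library at a time and are repeated in both colon libraries. A direction is described only where the counting interval excluded 0 in both. Whether an interval excludes 0 depends on the UMI count of a gene as well as on the ratio. The shares of eligible genes given for the cell classes of colon and spleen were not matched for UMI count. Whether the genes described here differ more often than genes of like level was therefore not tested. CPM already scales for depth, while thinning leaves fewer UMIs and so wider intervals. An interval that comes to hold 0 after thinning therefore does not show that depth made the difference. Cells with a UMI of Gzmb, the gene of the cytotoxic protease granzyme B, made up 52.3% of colon 1 and 52.7% of colon 2. They had more Mt1, at 204.1 against 68.7 CPM in colon 1 and 148.02 against 64 CPM in colon 2, or log2 1.57 (1.05 to 2.12) and 1.21 (0.90 to 1.53). Even the colon cells without a Gzmb UMI thus stood above the Mt1 level of spleen.

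Mt2 was higher in the Gzmb cells by log2 1.12 (0.42 to 1.86) and 1.91 (1.41 to 2.43), and Glrx by 0.93 (0.73 to 1.13) and 0.57 (0.47 to 0.68). Prdx1 and Gpx1 were higher there too, Gpx1 by log2 0.63 (0.39 to 0.87) and 0.43 (0.28 to 0.57). That made 5 of the 10 genes higher, against 4.91% of eligible genes, a share not matched for UMI count from which no excess is read. Gpx4 was the 1 gene of the 10 lower in them in both libraries, against 6.46% of eligible genes, by log2 -0.25 (-0.47 to -0.03) and -0.14 (-0.25 to -0.03). Gzmb cells had a median of 1856 and 2117.5 UMIs against 1674 and 1942 in the other cells, and after thinning Mt1, Glrx, Prdx1 and Gpx1 still met the criterion. Gpx4 did not, at log2 -0.06 (-0.37 to 0.25) and -0.13 (-0.30 to 0.03), nor did Mt2 in colon 1, at 0.51 (-0.48 to 1.54).

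Il10 encodes the suppressive cytokine interleukin 10. Cells with Il10 had more Gpx1, by log2 0.90 (0.64 to 1.16) and 0.44 (0.30 to 0.59), and less Gpx4, by log2 -0.30 (-0.52 to -0.08) and -0.35 (-0.46 to -0.24). Glrx was higher by log2 0.53 (0.34 to 0.73) and 0.34 (0.23 to 0.45), and Prdx1 was also higher, 3 genes higher and 1 lower against 5.2% and 6.21% of eligible genes. After thinning the intervals in colon 1 held 0 for Gpx4, at log2 -0.26 (-0.57 to 0.06), and for Prdx1, at 0.15 (-0.16 to 0.47).

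Il1rl1 is the gene of the interleukin 33 receptor ST2, carried by tissue Tregs. In cells with it Gpx1 was lower, by log2 -0.44 (-0.75 to -0.15) and -0.47 (-0.65 to -0.29), and Gpx4 higher, by log2 0.27 (0.02 to 0.51) and 0.51 (0.39 to 0.63), 1 gene on each side against 4.34% lower and 4.54% higher among eligible genes. After thinning both intervals held 0 in colon 1, with Gpx1 at log2 -0.14 (-0.59 to 0.28) and Gpx4 at 0.27 (-0.10 to 0.63). In colon 2 neither interval did. Gpx1 was also lower in cells with Klrg1, a receptor of terminally differentiated cells, by log2 -0.65 (-0.91 to -0.39) and -0.32 (-0.47 to -0.18), and met the criterion after thinning. Prdx5 was the other gene lower with Klrg1, against 5.83% of eligible genes, and after thinning its interval held 0 in colon 2.

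Colon cells with Ccr7, a chemokine receptor gene of cells that travel through lymph nodes, were lower in 5 of the 10 genes, against 7.27% of eligible genes. Glrx was at 304.3 against 875.8 CPM in colon 1 and 398.5 against 823.997 CPM in colon 2, or log2 -1.53 (-1.95 to -1.13) and -1.05 (-1.26 to -0.84). Mt1 was lower by log2 -3.24 (-5.53 to -1.67) and -1.05 (-1.66 to -0.50), with 17.2 CPM in the Ccr7 cells of colon 1. Prdx1, Prdx5 and Gpx1 were lower as well, Prdx5 by log2 -1.14 (-2.30 to -0.17) and -0.73 (-1.31 to -0.20). Ccr7 cells were deeper, at a median of 1866 and 2170 UMIs against 1756 and 2015, and after thinning Prdx5 was at log2 -0.69 (-2.19 to 0.51) and -0.32 (-1.14 to 0.40), while the other 4 genes still met the criterion. Gpx4 had opposite directions in the colon libraries, at log2 0.41 (0.11 to 0.69) and -0.33 (-0.52 to -0.15). After thinning both intervals held 0, at log2 0.36 (-0.09 to 0.79) and -0.22 (-0.52 to 0.06).

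Dividing cells, with at least 2 UMIs of Mki67, Top2a, Birc5, Ube2c, Cdk1 or Stmn1, made up 6.79% and 4.46% of the colon libraries. They had more Txn1, at log2 1.31 (1.06 to 1.55) and 0.92 (0.70 to 1.14), and Txn1 was the 1 gene of the 10 higher there in both libraries, against 6.12% of eligible genes. Their depth was larger, with a median of 2865.5 and 2903 UMIs, and after thinning the Txn1 values were 1.03 and 0.57.

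**Figure D4:**
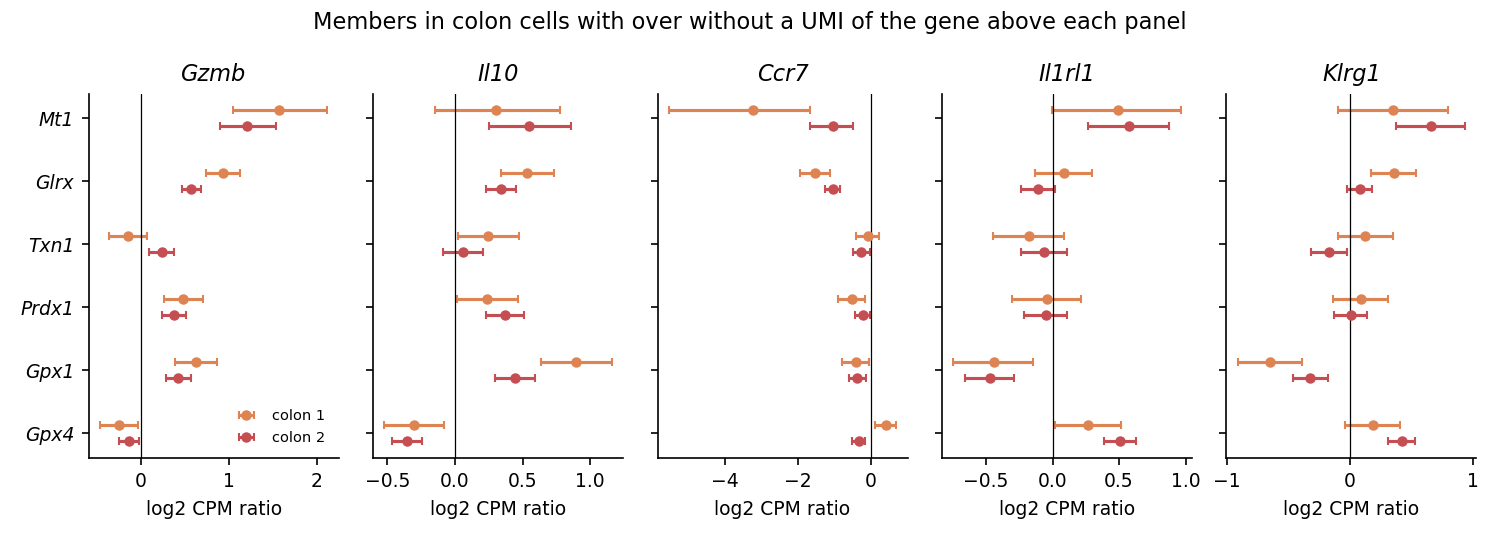
Log2 CPM ratio of 6 of the genes in colon cells with over without a UMI of Gzmb, Il10, Ccr7, Il1rl1 or Klrg1, in colon 1 and colon 2, with exact 95% intervals of counting error; the x axes differ in range. Before thinning, as plotted, Gpx1 and Gpx4 lie on opposite sides of 0 with Gzmb, Il10 and Il1rl1, and Glrx lies far below 0 with Ccr7.

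In spleen the clearest difference within the library was that of Glrx. Spleen cells with S100a4, a gene of activated and effector T cells, had 553.07 CPM of Glrx against 74.2 CPM in the other spleen cells, or log2 2.90 (2.49 to 3.32). The S100a4 cells were 25.1% of the library. Txn1, Prdx1, Gpx1 and Gpx4 were higher in them as well, by log2 0.97, 0.66, 0.92 and 0.28, so that 5 of the 10 were higher against 22.6% of eligible genes. The same 5 genes were higher in the 20.3% of spleen cells with Itgb1, an integrin gene, with Txn1 at log2 1.17 (0.86 to 1.47) and Glrx at 1.12 (0.75 to 1.49), against 14.2% of eligible genes. Both sets of cells were deeper than the rest, at a median of 2018 and 2079 UMIs against 1797 and 1800. After thinning, with fewer UMIs, the interval held 0 for Gpx4 with S100a4, at log2 0.38 (-0.03 to 0.77). That value was not below the 0.28 before thinning. The interval also held 0 for Prdx1 and Gpx1 with Itgb1, at 0.43 (-0.12 to 0.95) and 0.51 (-0.03 to 1.02). In the 51.1% of spleen cells with Ikzf2, the gene of the transcription factor Helios, Glrx was higher by log2 1.16 (0.76 to 1.58). Gpx4 was higher by 0.27 (0.01 to 0.52), against 15.5% of eligible genes higher. Mt1 stood at log2 -3.70 (-9.12 to -0.91) there, from 1 UMI against 11, and after thinning its interval held 0. All its spleen UMIs lay in 3 cells, and the counting interval does not allow for UMIs that share a cell. No direction is therefore read for Mt1. In the 24.8% of spleen cells with a UMI of Ifit1, Ifit3, Isg15 or Usp18 Glrx was higher by log2 0.89 (0.52 to 1.26), as were 8.1% of eligible genes. Prdx1 was lower in these cells, by log2 -0.40 (-0.79 to -0.03), and after thinning stood at 0.14 (-0.40 to 0.66). The share of eligible genes on the lower side was not computed for these classes.

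Over colon cells, genes with a pattern like the 10 genes were sought among 1488 genes with at least 100 CPM in both colon libraries, for the 7 of the 10 at that level in both. For Glrx the leading gene was S100a6, with r of 0.24 in colon 1 and 0.21 in colon 2, followed by Lgals1 and S100a10. For Gpx1 it was Itm2b, with 0.23 and 0.18, then S100a4 and Vim. Mt1 had Tnfrsf9 and Gzmb first, with r near 0.1, and Gpx4 had Tnfrsf9 and Tnfrsf18. Lgals1 and Vim led for both Txn1 and Prdx1, and Trp53inp1 led for Prdx6 with 0.10 and 0.08. These are weak correlations over sparse counts in cells that share a library and depth.

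The wider redox and metal pathway was described by 7 lists of genes, with each gene besides the 10 counted once if it had at least 30 UMIs over the 3 libraries. Of the genes so measured, 14 or 10.4% passed the 2-fold rule on the higher side and 5 or 3.73% on the lower side, shares near the 11.7% and 4.45% of eligible genes. The counts for each list below are descriptions to be read against those shares. Their median log2 ratio was 0.003 in colon 1 and 0.19 in colon 2, against 0.98 and 0.84 over the 10 genes, which were chosen with this contrast known.

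Among 21 thioredoxin system genes 2 were higher and 0 lower. Srxn1, the sulfiredoxin that repairs overoxidised peroxiredoxins, had 2 UMIs in spleen and 31.1 and 39.6 CPM in colon, at log2 4.29 (2.34 to 7.38) and 4.64 (2.76 to 7.69). Nxn, nucleoredoxin, was 2.38-fold and 2.57-fold higher, with a log2 interval of -0.007 to 2.65 in colon 1 that held 0. Txnip, the inhibitor that binds thioredoxin, was at 400.5 CPM in spleen against 227.4 and 221.9 CPM in colon, or log2 -0.82 (-1.03 to -0.60) and -0.85 (-1.01 to -0.69), short of the 2-fold rule. The other 6 glutaredoxins and peroxiredoxins held 0 genes higher and 0 lower, with Prdx4 at 1.73-fold and 1.5-fold and Glrx3 at 0.69-fold and 0.60-fold.

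Among 22 genes of glutathione peroxidases and glutathione metabolism 3 were higher and 3 lower. Slc3a2, the shared chain of amino acid transporters that include the cystine importer, was at 81.2, 280.1 and 360.3 CPM, 3.45-fold and 4.44-fold higher. Gstm1, a glutathione transferase, had 3, 11 and 92 UMIs and stood at log2 1.88 (-0.04 to 4.36) and 3.30 (1.71 to 5.6). Gsta4, also a transferase, was lower, at log2 -2.80 (-4.78 to -1.29) and -2.20 (-3.12 to -1.31). The rest of those that passed, named after their values were seen, were Gstz1, higher from 3 spleen UMIs, Mgst2, lower at 0.40-fold and 0.30-fold, and Slc25a40, lower at 0.36-fold and 0.41-fold. The 15 genes of superoxide and hydrogen peroxide metabolism held 0 higher and 0 lower, with mitochondrial Sod2 at 2.76-fold and 1.98-fold, Sod1 at 1.39-fold and 1.48-fold and catalase (Cat) at 0.97-fold and 0.96-fold.

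Among 24 genes of NRF2 and heme 4 were higher and 2 lower. Hmox1, heme oxygenase 1, had 4, 23 and 64 UMIs and was 5.76-fold and 5.13-fold higher, with a log2 interval of 0.98 to 4.52 in colon 1. Maff, a small MAF partner of NRF2, had 1, 23 and 74 UMIs, which gives log2 4.53 (1.90 to 9.89) and 4.57 (2.05 to 9.89). The repressor genes Bach2 and Bach1 were lower, at log2 -2.27 and -1.62 and at -1.52 and -1.99. Mafg, at 3.25-fold and 2.76-fold, and Sqstm1, at 2.46-fold and 3.27-fold, were the other higher genes and were named after their values were seen. Nfe2l2, the gene of NRF2, was at 1.5-fold and 1.92-fold.

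The metal list had 5 of 30 genes higher, or 16.7%, and 0 lower, against 11.7% and 4.45% of eligible genes, whose floor is higher. Slc39a4, a zinc importer, was 8.27-fold and 12.6-fold higher, from 6.37 CPM or 8 UMIs in spleen. Slc30a1, the zinc exporter of the cell membrane and like Mt1 and Mt2 a target of MTF-1, was at 15.1, 51.9 and 60.8 CPM, or 3.43-fold and 4.02-fold higher. Tfrc, the transferrin receptor, was 3.72-fold and 6.0-fold higher, from 7 spleen UMIs. Slc30a6, another zinc transporter, had 4, 11 and 27 UMIs and was named after its values were seen. Its intervals held 0, at log2 1.46 (-0.29 to 3.57) and 1.11 (-0.41 to 3.09). Fth1, the ferritin heavy chain, was at 1133, 2660.3 and 2472 CPM, 2.35-fold and 2.18-fold higher, while the light chain Ftl1 was at 1.09-fold and 1.10-fold. Mtf1 itself was at 0.68-fold and 0.97-fold, with 34 UMIs in spleen and 23 in colon 1. Of 17 other selenoproteins and genes of their synthesis, 0 were higher and 0 lower, with Selk at 1.92-fold and 1.74-fold and Pstk, a kinase of selenocysteine synthesis, at 0.49-fold and 0.52-fold.

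**Figure D5:**
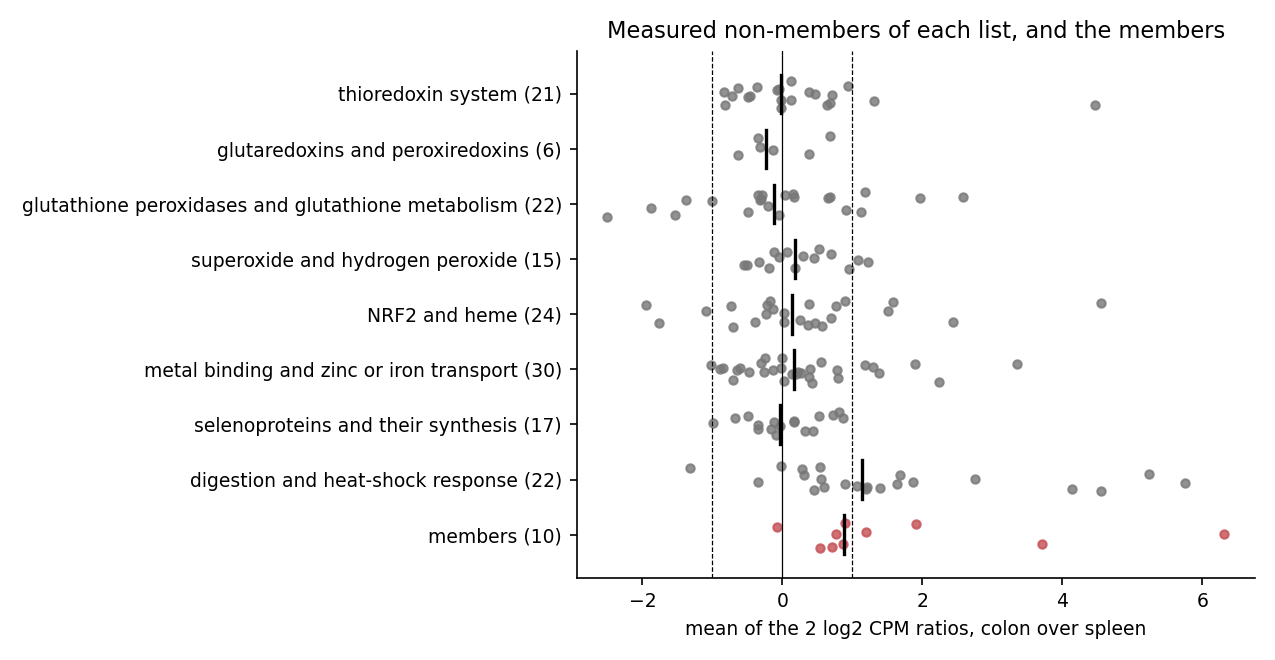
Mean of both log2 CPM ratios of colon to spleen for each measured gene of 8 lists besides the 10 genes, and for the 10 genes themselves in red; numbers of genes are in parentheses, short black lines are medians and dashed lines mark 2-fold. The redox and metal lists centre near 0, and the digestion and heat-shock list, with 11 of 22 genes higher and 1 lower, and the 10 chosen genes lie to the right.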

How the data were processed

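Per the labels' protocols, transcripts were captured with oligo-dT primers in droplets, amplified by in vitro transcription and read on a NextSeq500. TopHat2, SAMtools and mm10 are named in the submitters' processing notes, without parameters. The authors deposited a table of UMI counts per gene and cell, with 617 cells of spleen, 619 of colon 1 and 1772 of colon 2, and 0 of its columns were left out. From it UMIs were summed per library and scaled to CPM. Intervals are exact, at 95% (Poisson for levels, conditional binomial for ratios, Clopper-Pearson for shares), and a count of 0 was replaced by 3 in ratios. A gene was called at a ratio of at least 2 in both colon libraries. Thinning drew 1000 UMIs per cell and left out 4, 9 and 28 cells of spleen, colon 1 and colon 2. The ratio script was tested on simulated data. The 10 genes and all lists were chosen with earlier results of these data known. Named pathway genes were up to 4 per list with the largest mean log2 ratio plus a set of fixed names. No doublet caller was run. Alternatives, with their effect in the closing section, used edgeR 4.0.16 (TMM) scaling and DESeq2 1.42.0 size factors among others. Python 3.11.15, numpy 2.4.6, pandas 2.3.3 and scipy 1.17.1 were used. Gene positions come from GENCODE vM21 and promoter windows from RefSeq (GRCm38.p6).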

Additional observations from a re-analysis of the deposited data

How the results depend on the processing

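No paired analysis was possible because the labels give spleen 1 library and no number or animal shared between the tissues. Mt1, Mt2 and Glrx passed the 2-fold rule in each colon library under every alternative that kept that rule. Of the mean log2 ratios of the 10 genes to spleen under the alternatives, 3 lay outside the counting intervals, all of Glrx, from 1.69 with totals that leave out ribosomal protein genes to 2.26 with thinned cells. Those totals moved the median over eligible genes to log2 -0.24 from 0.02, took Txnrd1 below the rule, and gave 7.99% of eligible genes lower, so that 49.8% of called genes were higher against 72.5%. They gave 8 lower pathway genes against 5. Thinned cells added Prdx6 to the higher members and gave 9 lower pathway genes. Without colon replicate 1 or 2, which the labels do not show to be separate animals, lower eligible genes came to between 6.67% and 7.36%, lower pathway genes to between 6 and 12, and Prdx1 joined the higher members on colon 1 alone.

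A ratio of 1.5 gave 7 members higher (Prdx1, Prdx6 and Gpx1 added), 19.5% and 11.98% of eligible genes higher and lower, and 26 and 15 pathway genes. A ratio of 4 gave 2 members, 4.82% and 0.689%, and 4 and 1. Higher and lower eligible genes were 9.64% and 5.58% at a minimum of 20 CPM, 14.02% and 3.89% at 100 CPM, and 7.74% and 7.5% at 1 UMI. Pathway genes with at least 100 UMIs gave 9 higher and 2 lower, and those with at least 1 UMI 8 lower. In cell classes 82 values had an interval without 0, of which 52 kept one on the same side after thinning and 1 changed sign, Prdx1 in spleen cells with interferon genes, from log2 -0.40 to 0.14. Of the 98 values whose interval held 0, 32 changed sign. The cause was not tested. Depth limits Mt1, Mt2 and Txnrd1 in spleen, with 12, 1 and 18 UMIs.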
